A study of Mus musculus with 4 samples.

Results

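Semaphorins are extracellular guidance cues that steer axons, vessels and migrating cells, plexins are their signalling receptors, and neuropilins are co-receptors that most secreted semaphorins need to bind plexins. Class 3 semaphorins are secreted, classes 4, 5 and 6 span the membrane, and Sema7a is held there by a lipid anchor. All share the sema domain, through which they bind plexins, and plexins carry an intracellular GTPase-activating domain that acts on small GTPases. Binding of Tfcp2l1 at these genes was described here. Tfcp2l1 belongs to the CP2 branch of the grainyhead transcription factors and helps to hold embryonic stem cells in naive pluripotency downstream of LIF.

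The genes were all autosomal protein-coding RefSeq genes of GRCm38 whose symbols are Sema and a digit, Plxn and a letter, Nrp1 or Nrp2. The family was selected on measured values, the peaks of these same lists, with the strong site at Sema4b already known. There were 29 of them among 20661 autosomal protein-coding genes: 7 secreted ligands (Sema3a to Sema3g), 13 membrane ligands of classes 4 to 7, and 9 receptors (7 plexins and 2 neuropilins). The study had a single group, wild-type mouse embryonic stem cells grown without further treatment in 2i with LIF (1000 units/mL LIF, 3 µM of the GSK3 inhibitor CHIR99021 and 1 µM of the MEK inhibitor PD0325901). Chromatin was precipitated with 10 µg of a custom-made antibody against mouse Tfcp2l1 and compared with input DNA. The 4 libraries formed 2 repeats of 1 ChIP and 1 input library, and the labels do not say whether the repeats were separate cultures, nor which cell line was used. Whether differences between repeats are technical or biological is therefore not known. Each repeat gave 1 peak list, with 57614 and 51610 peaks from 19353473 and 22555373 filtered ChIP tags. There is no second condition and nothing to test across samples, so all values below are descriptions.

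A peak was called shared if a peak of repeat 1 overlapped a peak of repeat 2 by at least 1 bp, and it was given to a gene if its repeat 1 summit lay inside the gene or within 10 kb of its ends. Pairs of values are repeat 1 and then repeat 2. Fold enrichment is the authors' value for a single peak, the ratio of ChIP tags to the local background estimated by MACS. A shared peak was called strong if it stood in the top 10% of both lists by fold enrichment, which meant at least 43.4-fold and 32.2-fold. Where several peaks of repeat 1 overlapped the same peak of repeat 2, that peak's value was counted for the nearest summit alone.

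Shared Tfcp2l1 peaks lay at 23 of the 29 genes (79.3%, exact 95% binomial interval 60.3% to 92.0%, counting error only), where 66.9% of all autosomal protein-coding genes had one. Membrane ligands had a shared peak at 11 of 13 genes, receptors at 8 of 9 and secreted ligands at 4 of 7. The 95 shared peaks were spread unevenly: 8 genes had 5 or more (11.6% of all autosomal genes did), 15 had 1 to 4 and 6 had none. That share of all genes is not matched for length. Of the 8, Nrp2, Plxna2, Sema4d, Sema5a and Sema5b are over 100 kb long. Among all genes over 100 kb, 37.1% had 5 or more. The others of the 8, Sema3b, Sema4b and Plxnb2, are shorter. Strong shared peaks, found at 16.2% of all genes (also not matched for length), lay at 7 of the 29: Sema4b, Plxnb2, Sema6c, Plxna2, Sema6d, Sema5b and Sema4d. Among these are 5 membrane ligands and 2 plexins, and no secreted ligand or neuropilin. The strongest peak of Sema3b (42.2-fold and 40.8-fold) missed the strong class narrowly, in repeat 1 alone. Those of Sema3f (26.7-fold and 32.2-fold) and Nrp2 (34.1-fold and 41.2-fold) also missed it in repeat 1 alone. The members are not replicates, and they and their grouping were chosen with earlier results of these data known. These counts and the interval therefore support nothing beyond themselves.

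**Figure D1:**
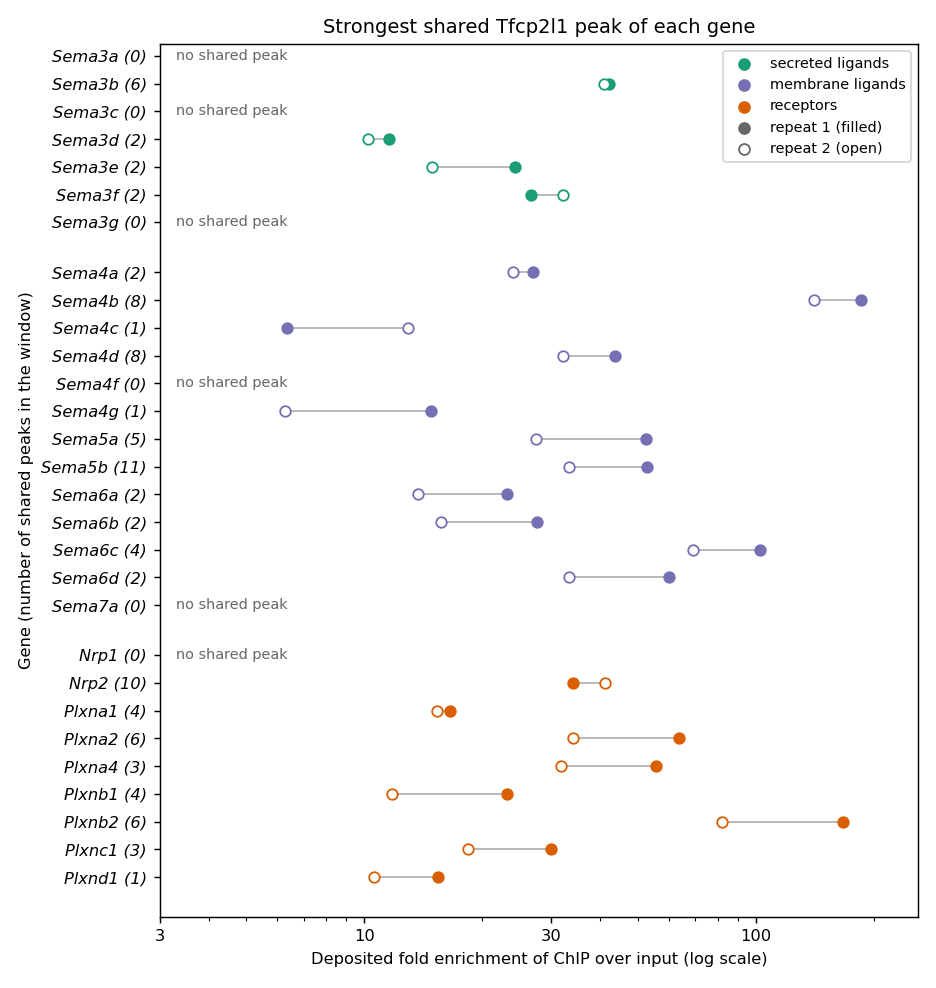
Deposited fold enrichment (log scale) of the strongest shared peak of each of the 29 genes, filled for repeat 1 and open for repeat 2, with the number of shared peaks in parentheses. Sema4b and Plxnb2 stand highest in both repeats and 6 genes have no shared peak.

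Gene length sets how many peaks a window can hold, and the 29 genes run from 11.6 kb (Sema3b) to 578 kb (Sema6d). Of 6 genes up to 20 kb long 5 had a shared peak, against 56.2% of all autosomal genes of that length. Of 9 genes of 20 to 50 kb 7 had one, against 75.8%, and of 14 genes over 100 kb 11 had one, against 86.1%. No member was 50 to 100 kb long, a class in which 80.0% of all genes had a shared peak. The median number of shared peaks in the members was 1.5, 2 and 2.5 in these length classes, and 1, 2 and 3 in all genes of the same classes. Read by length, the shares of the members therefore lay on both sides of those of other genes.

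**Figure D2:**
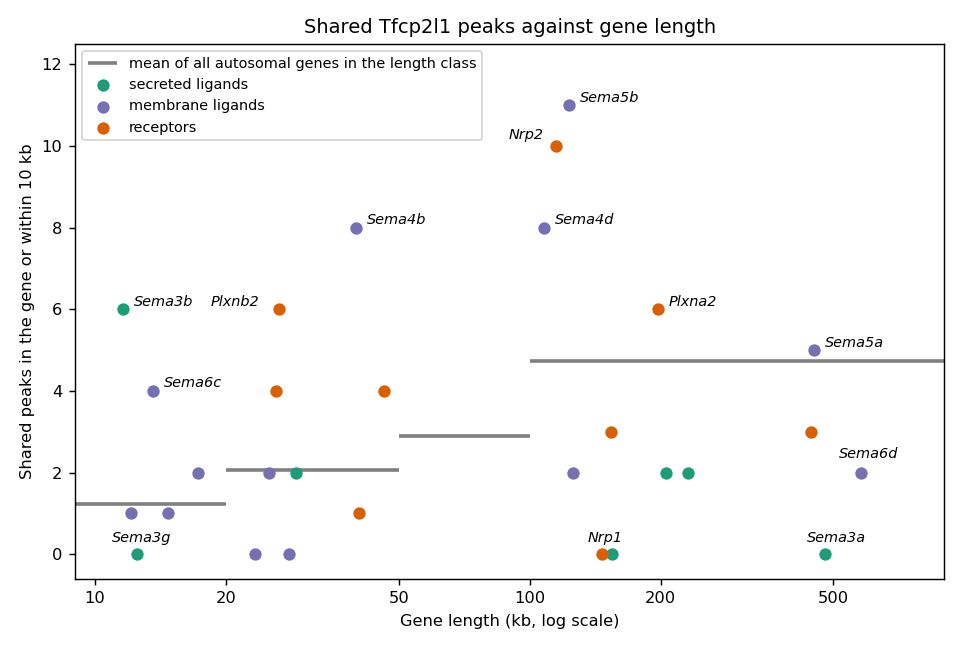
Number of shared peaks in each gene or within 10 kb against gene length (kb, log scale), with the mean over all autosomal protein-coding genes of each length class as grey lines (1.23, 2.07, 2.90 and 4.73). Sema3b, Sema4b, Plxnb2, Sema5b, Nrp2 and Sema4d lie above the line of their class, while Nrp1, Sema3a and Sema6d lie below it.

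Among the membrane ligands, Sema4b (chr7:80186870-80226646, plus strand) had the strongest site. Its peak at chr7:80185527-80187791 had 186-fold and 140.5-fold enrichment with 678 and 675 tags, and ranked 2 in both lists by fold enrichment. The summit lay 0.629 kb upstream of the listed start of the gene. A further 3 strong peaks lay inside Sema4b, 4.83 kb after that start (75.8-fold and 43.1-fold), 9004 bp after the second listed start (65.8-fold and 49.5-fold) and 5.65 kb from the far end of the gene (87.2-fold and 36.1-fold). In all Sema4b had 8 shared peaks in a window of 59.8 kb, and 2.1% of all genes of 20 to 50 kb had as many. A peak of 16.4-fold in repeat 1 just upstream of the strongest one overlapped the same peak of repeat 2, so it has no repeat 2 value of its own.

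Sema6c (chr3:95160420-95174050, plus strand) had the second strongest site of the membrane ligands, at chr3:95162990-95164927, with 102-fold and 69.1-fold enrichment (400 and 288 tags). The summit lay 0.106 kb upstream of a listed start inside the gene. The other 3 shared peaks of Sema6c were weak, from 6.67-fold to 10.15-fold in repeat 1 and from 8.24-fold to 12.2-fold in repeat 2. Sema6d, a ligand of Plxna1 known from heart development, had a strong peak deep inside its 578 kb (59.9-fold and 33.4-fold), 145 kb from the nearest listed start, and a weaker one (17.9-fold and 7.46-fold).

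Both class 5 genes, which carry thrombospondin repeats beside the sema domain, had shared peaks only inside the gene. Sema5b (chr16:35541154-35664261, plus strand) had the most shared peaks of all 29 genes, 11 within 83.9 kb of its body, and 11.5% of all genes over 100 kb had as many. Its strongest, at chr16:35540537-35543378, was the one nearest to the listed start (summit 918 bp downstream), with 52.7-fold and 33.4-fold. The other 10 ran from 8.74-fold to 20.8-fold in repeat 1 and from 5.49-fold to 21.2-fold in repeat 2. Sema5a, 452 kb long, had 5 shared peaks, the strongest 65.1 kb from an end of the gene (52.4-fold and 27.5-fold). This peak missed the strong class in repeat 2 alone. The other 4 ran from 12.7-fold to 31.0-fold in repeat 1. Sema5a also had 4 peaks in repeat 1 alone and 3 in repeat 2 alone, and Sema5b had 1 and 1.

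Sema4d, the ligand of Plxnb1 also known as CD100 on immune cells, had 8 shared peaks. The strongest lay 2.73 kb downstream of a listed start at 43.7-fold and 32.2-fold, values at the bounds of the strong class. The other 7 ran from 8.21-fold to 24.5-fold in repeat 1, and 1 of them lay inside Secisbp2. Sema4d also had 4 peaks in repeat 1 alone, of 6.81-fold to 9.66-fold. Sema4a, Sema4c, Sema4g, Sema6a and Sema6b had 1 or 2 shared peaks each. Sema4a had a peak 6.21 kb upstream of the gene (26.9-fold and 23.9-fold), and Sema6b had a peak 1.4 kb upstream of its start (27.5-fold and 15.7-fold). Sema6a, a ligand of Plxna2 and Plxna4, had 23.2-fold and 13.7-fold inside the gene and a second shared peak 0.614 kb from an end of it (9.66-fold and 5.1-fold). The single shared peak at Sema4c, a ligand of Plxnb2, had 6.35-fold and 12.95-fold and lay inside Fam178b. The single shared peak at Sema4g (14.8-fold and 6.28-fold) lay nearer to Mrpl43. Sema4f and Sema7a had no shared peak. Sema4f had a peak of 5.38-fold in repeat 2 alone, and Sema7a, the ligand of Plxnc1 and of integrins, had a peak of 6.76-fold in repeat 1 alone.

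Among the receptors, Plxnb2 (chr15:89155546-89182018, minus strand) had the strongest sites. This plexin of the B family binds class 4 semaphorins. Its peak at chr15:89178689-89179700 had 167-fold and 82.1-fold enrichment with 516 and 384 tags, and ranked 22 and 349. Another at chr15:89172594-89176349 had 89.5-fold and 65.1-fold with 565 and 398 tags and covered a listed promoter. These belonged to a group of 5 shared peaks of repeat 1 within 10.9 kb inside the gene. Of that group, a peak of 69.1-fold and a peak of 6.86-fold shared their repeat 2 peak with a nearer neighbour. The sixth shared peak lay inside the neighbouring gene Mapk11 (46.9-fold and 16.1-fold). The other autosomal B plexin, Plxnb1, had 4 shared peaks, the strongest at 23.2-fold and 11.8-fold. A second, 0.155 kb inside the 5′ end of Plxnb1, had 21.2-fold and 9.03-fold, and another lay inside the neighbour Ccdc51 (11.4-fold and 7.06-fold).

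All 7 autosomal plexins had a shared peak. Plxna2, an A plexin that serves neuropilins and class 6 ligands, had 6, the strongest 6.62 kb after its listed start at 63.8-fold and 34.1-fold. The other 5 ran from 6.93-fold to 20.3-fold in repeat 1 and from 6.67-fold to 21.2-fold in repeat 2, and 4 further peaks of repeat 2 inside Plxna2 had no match in repeat 1. Plxna4, 444 kb long, had a peak 117 kb from the nearer of its ends (55.6-fold and 31.8-fold), which missed the strong class in repeat 2 alone, and 2 weaker ones. Plxnc1, the receptor of Sema7a, had its strongest peak 1.78 kb after the listed start (29.95-fold and 18.4-fold). Plxna1 had 4 peaks of at most 16.5-fold and 15.3-fold. Plxnd1, the receptor that binds Sema3e without a neuropilin, had a single shared peak 7.59 kb outside the gene (15.5-fold and 10.6-fold).

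The neuropilins are both long genes and differed most among the receptors in their number of shared peaks. Nrp2 (chr1:62703317-62818692, plus strand), 115 kb long and the co-receptor for Sema3f, had 10 shared peaks, all inside the gene within 71.8 kb, and 14.1% of all genes over 100 kb had 10 or more. The strongest, at chr1:62742784-62744052, had 34.1-fold and 41.2-fold with 162 and 192 tags. The other 9 ran from 7.25-fold to 26.1-fold in repeat 1 and from 5.89-fold to 12.95-fold in repeat 2. No repeat held a peak at Nrp2 that the other lacked. Nrp1 (chr8:128358591-128505476, plus strand), 147 kb long and the co-receptor for Sema3a and for VEGF-A, had no peak of either repeat in the gene or within 10 kb, as did 6.49% of all genes over 100 kb. The shared peak nearest to Nrp1 lay 304 kb from it. The lists hold only peaks past the authors' threshold, so weaker enrichment at Nrp1 is not seen in them.

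**Figure D3:**
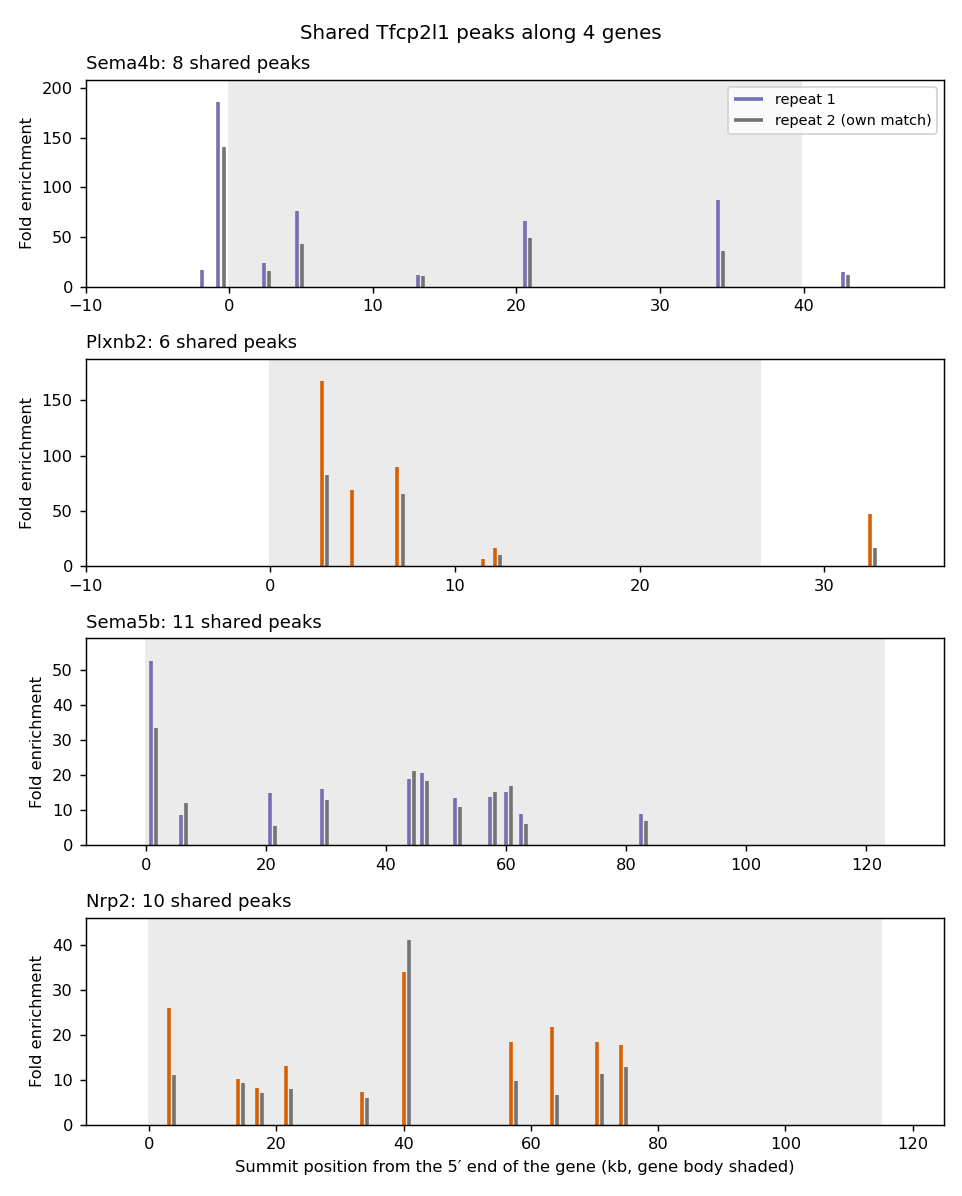
Fold enrichment of the shared peaks of Sema4b, Plxnb2, Sema5b and Nrp2 by summit position (kb from the 5′ end of the gene, gene body shaded), coloured for repeat 1 and grey for repeat 2. A grey line is drawn only where the repeat 2 peak belongs to that summit. The strongest peak of Sema4b and of Sema5b is the one beside the 5′ end of the gene, and the peaks of Nrp2 lie between 3.42 and 74.5 kb from its 5′ end.

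Among the secreted ligands, 4 long genes on chromosome 5 held few peaks and 2 shorter genes on chromosome 9 held most. The 7 windows together gave 0.949 shared peaks per 100 kb, against 2.53 for membrane ligands and 2.69 for receptors. The median gene length was 155 kb in secreted ligands, 27.9 kb in membrane ligands and 115 kb in receptors, which had the highest density. In all autosomal genes the density fell from 4.44 per 100 kb at up to 20 kb to 1.71 at over 100 kb. The order of the classes is not corrected for length, and the part of length in it was not tested. Sema3a, Sema3c, Sema3d and Sema3e lie together on chromosome 5 between 12383161 and 17730268, and their windows of 1150 kb in sum held 4 shared peaks, or 0.348 per 100 kb, against 1.71 in all genes over 100 kb. The strongest of these lay 79 bp downstream of the start of Sema3e (24.3-fold and 14.9-fold). Sema3d had 2 peaks of at most 11.6-fold and 10.2-fold. Sema3a, the founding axon repellent of the class, and Sema3c, known from the cardiac outflow tract, had no shared peak. Sema3a had a peak of 6.67-fold in repeat 2 alone and Sema3c a peak of 7.25-fold in repeat 1 alone.

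Sema3b and Sema3f, which lie near each other on chromosome 9, had 19.0 and 4.08 shared peaks per 100 kb. All genes up to 20 kb, the length class of Sema3b, had 4.44, and all genes of 20 to 50 kb, the class of Sema3f, had 3.99, so Sema3f was close to other genes of its length. Sema3b had 6 shared peaks in a window of 31.6 kb, and 1.68% of all genes up to 20 kb had as many. The strongest lay inside the gene at chr9:107606316-107607479 (42.2-fold and 40.8-fold, 179 and 155 tags). Of the other 5, 4 lay nearer to or inside the neighbours Gnai2, Ifrd2 and Lsmem2, so these peaks cannot be given to Sema3b alone. Sema3f, the ligand of Nrp2, had its strongest peak 1.75 kb outside the gene (26.7-fold and 32.2-fold). Sema3g, also a secreted ligand, had no peak of either repeat. The shared peaks of the ligands and receptors paired above, set side by side, were 0 and 0 for Sema3a and Nrp1, 2 and 10 for Sema3f and Nrp2, and 2 and 1 for Sema3e and Plxnd1. They were 1 and 6 for Sema4c and Plxnb2, 8 and 4 for Sema4d and Plxnb1, and 0 and 3 for Sema7a and Plxnc1. Sema6d and Plxna1 had 2 and 4, and Sema6a had 2 beside 6 for Plxna2 and 3 for Plxna4.

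Promoter sequence of RefSeq (GRCm38.p6) was listed for 24 of the 29 genes, in 35 windows taken as the 250 bases before each listed start. A shared peak overlapped such a window at 7 genes, and 25.6% of all listed autosomal genes had one there. The known Tfcp2l1 motif is a pair of similar half-sites a helical turn apart. It was searched on both strands as CCAGNNNNNNCCAG (strict) and CCNGNNNNNNCCNG (relaxed, which includes every strict match). The strict form was found in 3 of the 35 windows (8.57%, against 2.88% of all 20084 autosomal windows) and the relaxed form in 12 (34.3%, against 29.4%). Over all autosomal windows the strict form was in 4.14% of those under a shared peak and in 2.48% of the others. A match is a description and does not show that the factor was bound through it.

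The 5 windows below are those under the highest-ranked shared peaks, shown because they are the promoters of these genes at which the peaks lay. They are written 5′ to 3′ on the strand of the gene, and capitals mark relaxed matches.

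Sema4b, chr7:80186620-80186869, plus strand: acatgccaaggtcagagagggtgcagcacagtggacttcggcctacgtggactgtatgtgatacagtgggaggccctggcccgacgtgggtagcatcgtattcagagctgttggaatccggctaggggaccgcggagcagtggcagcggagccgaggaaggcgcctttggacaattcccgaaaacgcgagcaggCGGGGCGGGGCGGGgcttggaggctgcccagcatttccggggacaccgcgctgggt
Sema6c, chr3:95164089-95164338, plus strand: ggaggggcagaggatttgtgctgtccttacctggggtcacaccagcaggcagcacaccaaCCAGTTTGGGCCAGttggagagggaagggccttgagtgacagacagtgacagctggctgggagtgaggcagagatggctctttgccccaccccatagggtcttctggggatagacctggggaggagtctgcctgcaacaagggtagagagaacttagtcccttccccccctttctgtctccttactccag
Plxnb2, chr15:89173952-89174201, minus strand: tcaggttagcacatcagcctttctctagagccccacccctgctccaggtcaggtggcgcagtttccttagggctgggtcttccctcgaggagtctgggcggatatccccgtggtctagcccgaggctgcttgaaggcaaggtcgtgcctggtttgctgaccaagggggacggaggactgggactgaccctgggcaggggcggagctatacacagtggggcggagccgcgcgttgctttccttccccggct
Sema5b, chr16:35541112-35541361, plus strand: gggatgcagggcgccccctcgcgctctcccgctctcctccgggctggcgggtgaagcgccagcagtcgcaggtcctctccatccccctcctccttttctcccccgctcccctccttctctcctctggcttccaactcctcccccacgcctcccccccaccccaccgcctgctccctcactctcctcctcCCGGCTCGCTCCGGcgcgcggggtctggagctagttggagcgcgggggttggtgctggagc
Sema3e, chr5:14025026-14025275, plus strand: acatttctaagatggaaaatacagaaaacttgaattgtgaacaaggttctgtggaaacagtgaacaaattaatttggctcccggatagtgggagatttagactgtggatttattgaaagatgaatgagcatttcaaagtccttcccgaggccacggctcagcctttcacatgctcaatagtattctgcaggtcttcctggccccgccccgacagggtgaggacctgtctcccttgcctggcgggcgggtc

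The Sema6c window alone among these 5 held a strict match, CCAGTTTGGGCCAG, which begins 190 bp before the listed start. The peak over it had 102-fold and 69.1-fold enrichment, with its summit 0.106 kb before the start. In the Sema4b window the relaxed match CGGGGCGGGGCGGG, on the opposite strand, begins 56 bp before the start, while the summit of the 186-fold and 140.5-fold peak lay 0.629 kb before it and so outside the window. The Sema5b window held the relaxed match CCGGCTCGCTCCGG, which begins 61 bp before the start. The summit of the Sema5b peak (52.7-fold and 33.4-fold) lay 918 bp after the start, so the sequence there is also outside the window. The Plxnb2 and Sema3e windows held neither form. The summit of the Plxnb2 peak (89.5-fold and 65.1-fold) lay 1.09 kb before the listed start and that of the Sema3e peak (24.3-fold and 14.9-fold) lay 79 bp after it, so the sequence at these summits is outside the windows and was not searched. The other strict matches, in windows of Sema6d (CCAGAGGTTCCCAG) and Sema4a (CTGGAGGGGGCTGG, on the opposite strand), had no shared peak over them. These last matches were named after their values were seen.

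The positions of the shared peaks relative to their genes are as follows. Of the 95, 70 (73.7%) lay inside the gene. Over all autosomal genes the mean was 1.2 shared peaks inside the gene of 2.01 in the gene or within 10 kb. This comparison is not matched for length: the median gene length was 46.3 kb in the members and 17.5 kb in all autosomal genes. A longer gene fills more of its own window. By class, the share of shared peaks inside the gene was 86.5% for receptors, 71.7% for membrane ligands and 41.7% for secreted ligands. At the genes with a listed start, 6 of 78 shared peaks lay within 1 kb of it, 27 lay 1 to 10 kb away and 45 lay farther off. Of all shared peaks, counted by chromosome and against the listed starts of any gene, 8.7% to 17.5% lay within 1 kb of a start, so few peaks near starts is the general pattern of these lists. The 6 were at Sema4b, Sema6c, Sema5b, Sema3e, Plxna2 and Sema4a, with 186-fold to 6.99-fold enrichment in repeat 1. Of all 95, 10 lay nearer to another protein-coding gene than to the member. For Sema4c and Sema4g these were the only shared peaks. The gene table gives no exons, so exons and introns are not told apart. At the edge of the window, the outermost shared peak counted for Sema3b lay 9.77 kb from it (19.3-fold and 15.7-fold), and a shared peak 11.4 kb from Sema3a (18.8-fold and 13.7-fold) was not counted.

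Taken over all 29 genes, the repeats agreed about as often as elsewhere. Of 126 peaks of repeat 1 at the 29 genes, 95 were shared (75.4%, exact 95% binomial interval 66.9% to 82.6%), beside 76.4% of all autosomal peaks. Of 109 peaks of repeat 2, 93 were shared (85.3%, 77.3% to 91.4%), beside 84.9%. Both intervals give counting error only, since peaks of the same libraries are not replicates. By class, 68.7% of repeat 1 peaks were shared at membrane ligands, 84.1% at receptors and 80.0% at secreted ligands. For repeat 2 peaks these shares were 81.5%, 88.1% and 92.3%. The peaks found in a single repeat were weak. The 31 of repeat 1 had a median of 7.13-fold and 30 tags, and the 16 of repeat 2 a median of 6.67-fold and 27.5 tags. The highest was at Sema5a, with 21.7-fold enrichment in repeat 1. Taken alone, repeat 1 had a peak at 25 of the 29 genes (73.7% of all autosomal genes) and repeat 2 at 25 (70.5%). Summits of the 90 matched pairs lay a median of 26 bp apart, beside 28 bp over all 42525 autosomal pairs.

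Median fold enrichment of the shared peaks at these genes was 15.1 and 10.6, beside 15.5 and 11.8 over all shared autosomal peaks. By class it was 11.3 and 9.22 for secreted ligands, 15.0 and 12.9 for membrane ligands and 16.0 and 10.2 for receptors. Enrichment was lower in repeat 2 for 75 of the 90 pairs (for 78.2% of all pairs), Nrp2's strongest peak being an exception. Spearman's rho between the repeats was 0.789 over the 90 pairs and 0.817 over all pairs. These are correlations across regions that share their libraries, given as a description.

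**Figure D4:**
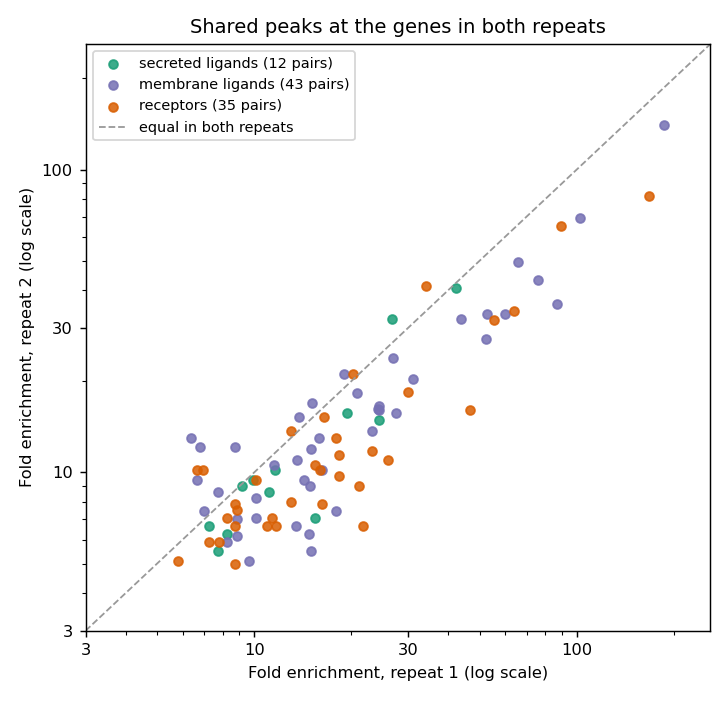
Fold enrichment in repeat 1 against repeat 2 (both log scales) for the 90 matched shared peaks at the 29 genes, coloured by class. Most points (75) lie below the dashed line of equality, and the pairs of Sema4b and Plxnb2 stand at the upper right.

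Other genes of the pathway were counted by the same rule. These gene lists were not matched for length. A shared peak lay at 56.2% of all autosomal genes of up to 20 kb and at 86.1% of those over 100 kb. Of 27 genes for intracellular effectors, 24 had a shared peak (88.9%, beside 66.9% of all autosomal genes). The strongest were at Fyn, a kinase in semaphorin 3A signalling (145-fold and 92.2-fold, 15 shared peaks), Farp1 (109.7-fold and 97.3-fold) and the small GTPase gene Rhoa (88.2-fold and 94.2-fold). Mical3, of the family of actin-oxidising enzymes that act behind plexins, had 22 shared peaks. Dpysl4, Rap1a and Rras had no shared peak. Of 12 autosomal genes for co-receptors and other partners, 9 had a shared peak (75.0%). The strongest were at Plxdc1 (52.5-fold and 39.2-fold), Chl1 (49.8-fold and 29.4-fold) and Erbb2 (54.1-fold and 25.5-fold), and Kdr, Itgb1 and Cd72 had none. In other guidance families, shared peaks lay at 19 of 21 autosomal ephrin and Eph receptor genes, 5 of 7 Slit and Robo genes, and 9 of 10 genes of netrins and their receptors.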

How the data were processed

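Tfcp2l1 ChIP and input libraries of 2 repeats were analysed from the 2 deposited peak lists, called per repeat with MACS 1.4.1 at a p-value of 1e-05 and not pooled, per the file headers. Tags were 35 bp long and d was 200 bp, per the file headers. CASAVA 1.8.2 is listed too, per the submitters' processing notes, and which aligner was used is not given in the sources. Filtered input tags numbered 18446758 and 23825930. Tag counts were deposited per peak without normalization. Fold enrichment was deposited as a ratio to local background, FDR in percent, and each peak's deposited score is a −log10 p-value times 10.

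The submitters' processing notes name mm9, but positions fit GRCm38: within 1 kb of a listed GRCm38 start lay 8.7% to 17.5% of shared summits on each of 18 autosomes, against 2.65% to 6.07% after moving summits by 20 kb, and peaks on Y reach 90.8 Mb. Genes came from RefSeq GRCm38.p6. Matching was tested on simulated data. Python 3.11.15, numpy 2.4.6 and pandas 2.3.3 were used. Intervals are exact (Clopper-Pearson).

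The members and lists were chosen with earlier results of these data known. Every member is accounted for. Those given in full are, per class, up to 4 whose strongest shared peak ranked best over both lists, those without a shared peak and the one with the most. Pathway genes named are up to 3 per list by the same rank and those without a shared peak, and Mical3 was named after its values were seen. Alternatives were stricter peak limits, other definitions of a shared peak, other windows, rankings and motifs, and each repeat alone.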

Additional observations from a re-analysis of the deposited data

How the results depend on the processing

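The number of genes with a shared peak, 23 of 29, stayed within 1.5 times under all alternatives but a limit of 20-fold in each repeat, where it was 13 of 29 (44.8%, against 31.8% of all autosomal genes). With that limit 20 shared peaks remained, at 2 secreted ligands, 7 membrane ligands and 4 receptors, 85.0% of them inside the gene, and 5 co-receptor and 12 effector genes had one. With at least 10-fold in both repeats 49 shared peaks remained, at 21 of 29 genes (52.1% of all autosomal genes). The fold and FDR limits used a repeat 2 value for every overlapping peak of repeat 1, not for the nearest summit alone. The Plxnb2 peak of 69.1-fold in repeat 1 thus passed both fold limits on a neighbour's value. Peaks of 16.4-fold at Sema4b and 12.7-fold at Sema5a so passed the 10-fold limit. With an FDR of at most 0.01% 43 shared peaks remained, at 18 of 29 genes (51.0% of all), 2 of them secreted ligands. Their medians were 20.8-fold and 15.5-fold. The deposited FDR did not follow fold enrichment at every peak. This limit dropped the strongest peak of Sema6d (59.9-fold and 33.4-fold, FDR 0.02% in repeat 2) but kept a Sema3b peak of 9.9-fold and 9.42-fold. It also dropped the strongest peaks of Nrp2, Plxna2, Plxna4, Sema3b, Sema3f and Sema5b, with an FDR of 0.02% or 0.03% in repeat 2. Strong Sema4b peaks of 75.8-fold and 87.2-fold in repeat 1 were dropped too (0.03% and 0.04% in repeat 2). The FDR limit is therefore not a stricter limit on fold enrichment. A window of 50 kb gave 175 shared peaks and a shared peak at 28 of 29 genes (83.3% of all autosomal genes), among them all 7 secreted ligands. The ends of genes alone gave 51 shared peaks, at 21 of 29 genes (62.2% of all). Without replicate 2 or without replicate 1 (all peaks of the other repeat), 25 of 29 genes had a peak, beside 73.7% and 70.5% of all genes. The relaxed motif was in 12 member promoters and the strict in 3. Of 65 alternatives for the strongest peak of a gene, 3 moved it. These were Sema4b by score (65.8-fold in repeat 1), Plxnb2 by tags (89.5-fold) and Sema4a within 1 kb (6.99-fold). The 186-fold Sema4b peak and the strongest Plxnb2 peak both score 3100 in each repeat, so the score does not rank these 2. The strongest Sema6c peak has that score in repeat 1 but 2614.52 in repeat 2. Plxnd1, Sema3f, Sema4c and Sema6b had no shared peak in the gene or within 1 kb, so for them that alternative is not among the 65. Using each repeat 2 peak once, chosen after seeing the data, gave 23 genes. No paired analysis was possible because no separate input values were used and no groups were compared. Depth limits the lists to peaks past the authors' threshold, so a gene without a peak may hold weaker enrichment.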

Other observations

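The plexin genes Plxna3 and Plxnb3 lie on chromosome X and were not among the 29 genes. Each had 1 shared peak in the gene or within 10 kb, at 12.6-fold and 6.67-fold for Plxna3 and at 15.3-fold and 6.67-fold for Plxnb3.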
